A study of Mus musculus with 8 samples.

Results

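The nuclear genes of mitochondrial complex I are described here by their RNA in mouse gastrocnemius, the large calf muscle. The members are the rows of the deposited gene table whose symbol starts with Nduf. There were 44 of them among 30743 genes, namely 7 core subunits, 29 accessory subunits, 6 assembly factors (Ndufaf1 to Ndufaf6), and Ndufa4 and Ndufa4l2, which share the name although Ndufa4 is now assigned to complex IV. All 44 passed the minimum level set for testing, which was a signal of at least 25 in at least 3 libraries.

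Complex I is the NADH dehydrogenase of the respiratory chain. It takes electrons from NADH in its N module, passes them along iron-sulphur clusters to ubiquinone in its Q module, and pumps protons through its membrane arm. The core subunits carry out these steps, and those of the membrane arm are encoded by the mitochondrial genome. The accessory subunits surround the core and stabilise it, and the assembly factors help to build the complex without remaining in it. In muscle the enzyme is most abundant in oxidative fibres and less so in fast glycolytic fibres, which make up most of the gastrocnemius.

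The study asked how RNA levels change when skeletal muscle grows under activated Akt1, a growth-signalling kinase. Polyadenylated RNA of the gastrocnemius was sequenced in 4 DTG and 4 MckrtTA male mice of 4 months (strain label Myo L8), all given doxycycline at 0.5 mg/ml in drinking water for 2 weeks and fasted overnight before collection. DTG mice carried the 1256[3Emut]Mck-rtTA and the TRE-myrAkt1 transgene. MckrtTA mice were littermates with 1256[3Emut]Mck-rtTA alone, so both groups had the rtTA activator, driven by the muscle creatine kinase promoter, and the drug. Both muscles of a mouse were collected, and each library came from 1 mouse, so the whole muscle with its fibres, vessels and other cells was read together. In RNA of a whole tissue, fewer cells of a type and less RNA per cell cannot be told apart.

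Values are signals. A signal is the number of reads that RSEM estimated for a gene, scaled by the authors so that the gene at the 75th percentile of each library has 1000. Libraries held an estimated 46.0 to 54.0 M reads in DTG and 45.6 to 58.6 M in MckrtTA mice, and the lowest member in any library rested on about 134 reads. Akt1 averaged 53654 ± 14928 in DTG and 4622 ± 471 in MckrtTA libraries (SD, n = 4 each). The groups also differed in cell type markers, whose summed signals are given in units of 1000. Markers were called lower or higher at a limma adjusted p under 0.005 and a change of 2 fold or more. Of all genes tested 16.0% were lower and 14.6% higher by that measure. Of 10 muscle fibre markers 5 were lower, with a sum of 4790 to 10490 in DTG and 17720 to 20150 in MckrtTA libraries, and none was listed at 0 in any library. At an adjusted p under 0.05 with no minimum fold, 9 of the 10 were lower, against 44.1% of all genes. All 7 macrophage markers were higher, with a sum of 52.8 to 189 in DTG and 3.57 to 4.41 in MckrtTA libraries. All 5 markers of regenerating fibres were higher, with a sum of 13.5 to 90.4 in DTG and 1.80 to 2.38 in MckrtTA libraries. So were 4 of 5 fibroblast markers, with a sum over all 5 of 149.9 to 759 in DTG and 84.2 to 107 in MckrtTA libraries. The remaining fibroblast marker, Dcn, went the other way, with a mean signal of 34557 ± 1435 in DTG and 50064 ± 4813 in MckrtTA libraries (SD, n = 4 each). Every DTG library of Dcn lay below every MckrtTA library. Of 4 endothelial markers 1 was lower (16.2 to 24.1 in DTG and 24.9 to 27.6 in MckrtTA libraries), and of 4 adipocyte markers none was called (8.81 to 15.0 in DTG and 14.1 to 16.7 in MckrtTA libraries). At an adjusted p under 0.05 with no minimum fold, 3 of 4 endothelial and 1 of 4 adipocyte markers were lower. The part of these differences in the values that follow was not tested.

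Promoters of 4 members are shown as examples. Ndufs7 and Ndufb4 had the strongest falls among core and accessory subunits. Ndufaf5 was 1 of 3 assembly factors lower by 2 fold or more, and Ndufb7 was the accessory subunit least reduced. The sequences are from RefSeq on GRCm38.p6, run 5′ to 3′ on the strand of the gene, and hold 250 bases before the start of the transcript and 50 after it. Capitals mark matches to 4 short motifs of factors known to act on nuclear genes of the respiratory chain, searched on both strands: AAGGTCA (the site of oestrogen-related receptors), GCGCATGC (the centre of the NRF1 site), CCGGAAG (GABPA, also called NRF2) and AAGATGGCG (YY1).
Ndufs7, chr10:80249199-80249498, plus strand: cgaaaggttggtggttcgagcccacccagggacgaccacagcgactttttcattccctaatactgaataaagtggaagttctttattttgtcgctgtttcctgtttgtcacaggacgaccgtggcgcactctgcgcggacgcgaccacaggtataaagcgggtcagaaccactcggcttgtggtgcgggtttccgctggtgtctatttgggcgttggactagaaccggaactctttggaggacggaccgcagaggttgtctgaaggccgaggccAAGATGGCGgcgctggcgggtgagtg
Ndufb4, chr16:37654319-37654618, minus strand: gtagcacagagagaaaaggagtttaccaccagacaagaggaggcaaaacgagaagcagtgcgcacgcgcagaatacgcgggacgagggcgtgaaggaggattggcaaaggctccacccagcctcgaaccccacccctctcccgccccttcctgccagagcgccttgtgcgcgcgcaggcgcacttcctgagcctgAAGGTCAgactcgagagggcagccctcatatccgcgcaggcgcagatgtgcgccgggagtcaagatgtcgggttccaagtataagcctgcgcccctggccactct
Ndufaf5, chr2:140170396-140170695, plus strand: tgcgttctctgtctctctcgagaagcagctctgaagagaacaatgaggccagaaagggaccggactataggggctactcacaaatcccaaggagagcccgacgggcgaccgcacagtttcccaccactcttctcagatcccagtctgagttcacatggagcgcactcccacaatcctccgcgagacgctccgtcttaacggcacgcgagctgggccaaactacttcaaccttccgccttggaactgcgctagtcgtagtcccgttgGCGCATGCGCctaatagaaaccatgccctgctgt
Ndufb7, chr8:83566508-83566807, plus strand: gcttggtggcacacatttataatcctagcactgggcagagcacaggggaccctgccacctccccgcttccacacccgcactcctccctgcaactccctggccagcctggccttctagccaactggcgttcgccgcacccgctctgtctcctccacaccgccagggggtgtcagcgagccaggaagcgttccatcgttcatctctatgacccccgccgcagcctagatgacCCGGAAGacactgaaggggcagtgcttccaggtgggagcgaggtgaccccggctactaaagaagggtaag
Ndufs7 held the YY1 motif just after its start, Ndufb4 the receptor motif before its start, Ndufaf5 the NRF1 motif and Ndufb7 the GABPA motif. These examples do not stand for all members, since promoters such as those of Ndufv1, Ndufv2, Ndufa12 and Ndufab1 held no match to any of the 4 motifs. RefSeq promoters were matched to 38 of the 44 members. Among these 38, the NRF1 motif was found in 5 (13.2%, against 2.71% of all 32851 promoters and 3.52% of the 21263 promoters of protein coding genes). The YY1 motif was found in 5 (13.2%, against 1.40% of all promoters and 1.83% of those of protein coding genes). The GABPA motif was found in 5 (13.2%, against 8.86% and 11.6%) and the receptor motif in 3 (7.89%, against 4.72% and 4.08%), so that the share with the GABPA motif lay near that of protein coding genes. No match to one motif overlapped a match to another in the members' promoters. The NRF1 motif is part of a palindrome, so that 1 site can match on both strands, and matches were not counted. Each of the 38 members, which had 40 promoters, was counted once if any of its promoters matched. The shares of all promoters and of those of protein coding genes count single promoters, so the 2 kinds of share are not quite alike. A match describes the letters in this window and is no evidence of binding.

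On the deposited scale every member had a lower mean in DTG than in MckrtTA muscle. With the thresholds of the study, an adjusted p under 0.005 and a change of 2 fold or more, 34 of 44 members were lower and none was higher, against 16.0% of the 15073 genes tested that were lower and 14.6% that were higher. The 34 were 7 of 7 core subunits, 23 of 29 accessory subunits, 3 of 6 assembly factors and Ndufa4. At an adjusted p under 0.05 with no minimum fold all 44 were lower, against 44.1% of all genes, and no member was higher at an unadjusted p under 0.05. Of the 44, Ndufaf2 (adjusted p = 0.0486) and Ndufa4l2 (adjusted p = 0.0457) lay nearest to that limit in limma, and 1 or both were above it in 6 of the 8 fits with a single library left out, which had 42 to 44 members lower. The count was 43 with lane as a covariate or without the mean-variance trend and 42 with a filter that kept any gene above 0. In 43 of 44 members every DTG library lay below every MckrtTA library, against 40.4% of all genes, and Ndufaf2 was the exception. The median log2 fold change (DTG over MckrtTA, on log2 of the signal plus 10) was -1.15 over the 44 members, -1.24 over the core, -1.12 over the accessory subunits and -0.97 over the assembly factors, against -0.26 over all genes tested.

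**Figure D1:**
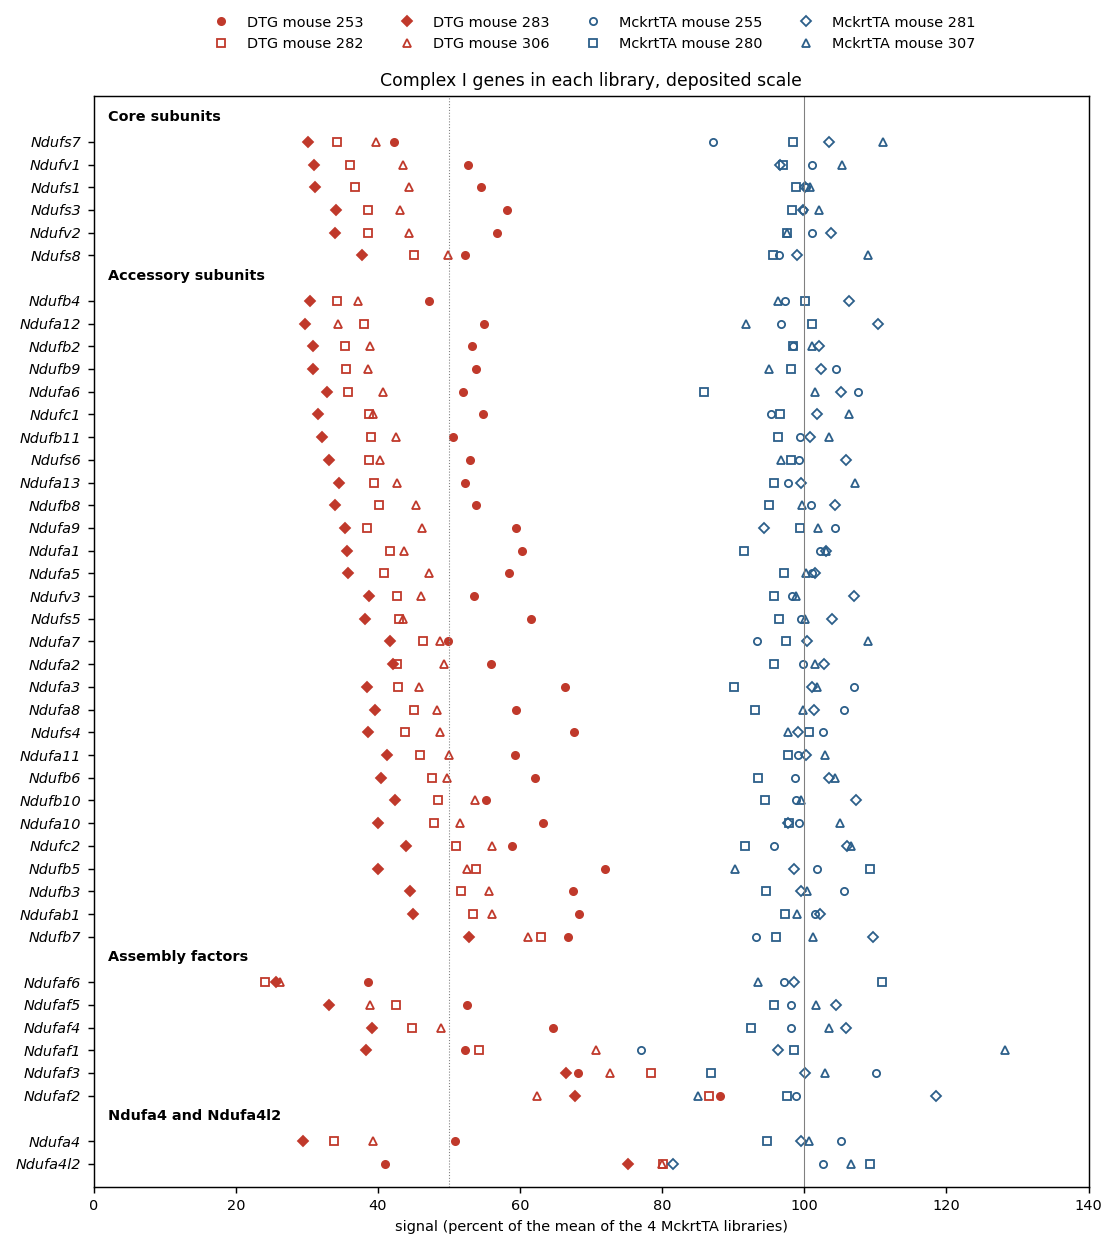
Signal of 43 of the 44 complex I genes in each library, as a percent of the mean of the 4 MckrtTA libraries (x axis), with 1 row per gene grouped by role and 1 symbol per mouse (DTG red, MckrtTA blue). Apart from Ndufaf2 in the assembly factors, every DTG symbol lies left of every MckrtTA symbol in its row, and DTG mouse 253 (filled circle) is the rightmost DTG mouse in 40 of 43 rows.

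The 7 nuclear core subunits were all lower. Library values are given throughout for DTG mice 253, 282, 283 and 306 and for MckrtTA mice 255, 280, 281 and 307, in that order, and each log2 fold change is followed by its standard error. In the N module, Ndufv1 (chr19:4007505-4012725 in mm10), which binds NADH and the flavin cofactor, had signals of 19351, 13254, 11362 and 15995 in the DTG libraries, against 37120.0, 35604, 35426 and 38642 in the MckrtTA libraries (log2 fold change -1.32 ± 0.16, limma adjusted p = 7.27e-05). Ndufv2, its partner with an iron-sulphur cluster, had 16025, 10908, 9588 and 12527 in the DTG libraries, against 28534, 27532, 29267 and 27507 in the MckrtTA libraries (log2 fold change -1.23 ± 0.15, limma adjusted p = 8.25e-05). Ndufs1, the largest subunit of the peripheral arm, had 28943, 19549, 16539.6 and 23519 in the DTG libraries, against 53196, 52424, 53133 and 53506 in the MckrtTA libraries (log2 fold change -1.29 ± 0.16, limma adjusted p = 0.000104). In all 3 genes the MckrtTA libraries lay close together, the DTG libraries were spread out with mouse 253 highest and mouse 283 lowest, and the groups did not overlap.

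In the Q module the range of changes was wider. Ndufs7 (chr10:80249452-80256792 in mm10), which carries the last iron-sulphur cluster before ubiquinone and whose promoter is shown above, had 8014, 6500.0, 5704 and 7530.1 in the DTG libraries, against 16516, 18649, 19608 and 21068 in the MckrtTA libraries (log2 fold change -1.46 ± 0.13, limma adjusted p = 1.40e-05). Its DTG mean was 36.6% of its MckrtTA mean, the lowest share among the core subunits, and its DTG libraries lay closer together than those of Ndufs3 or the N module genes. Ndufs3, around which the Q module is built early in assembly, had 14576, 9661, 8555 and 10807 in the DTG libraries, against 25011, 24616, 24986 and 25576 in the MckrtTA libraries (log2 fold change -1.23 ± 0.15, limma adjusted p = 9.15e-05). Ndufs8, with iron-sulphur clusters that lead electrons towards ubiquinone, had 5353, 4619.8, 3871 and 5118 in the DTG libraries, against 9896, 9809, 10152 and 11179.5 in the MckrtTA libraries (log2 fold change -1.12 ± 0.11, limma adjusted p = 2.96e-05). Ndufs8 had the smallest change of the core subunits, and its groups were still separate.

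Rows of the table that lie on the mitochondrial genome over genes of the other core subunits were lower as well. The row over mt-Nd2 had a log2 fold change of -1.68 (limma adjusted p = 0.00341) and the row over mt-Nd4l and mt-Nd4 one of -1.46 (limma adjusted p = 0.0158), and since such rows can cover several genes they were not counted as members.

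Among the 29 accessory subunits 23 were lower at the thresholds of the study, and log2 fold changes ran from -1.44 in Ndufb4 to -0.72 in Ndufb7. The 6 that were not called were Ndufa10, Ndufc2, Ndufb5, Ndufb3, Ndufab1 and Ndufb7, and all of these had an adjusted p under 0.005 and missed only the minimum of 2 fold. By position, all 5 accessory subunits of the N module and all 4 at the Q module and its junction with the membrane arm were lower, as were 7 of 9 in the proximal and 7 of 11 in the distal membrane arm. Ndufab1, which is also held on the Q module by Ndufa6, was counted only in the distal membrane arm. Both ends of the range were genes of the distal membrane arm.

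The 5 accessory subunits with the lowest fold changes included 3 of the distal membrane arm. Ndufb4 (chr16:37647602-37654368 in mm10) had 6859, 4979, 4421 and 5409.8 in the DTG libraries, against 14144, 14558, 15455 and 14001 in the MckrtTA libraries (log2 fold change -1.44 ± 0.13, limma adjusted p = 1.67e-05). Ndufb2, a small subunit of the same arm, had 3944, 2617, 2288 and 2877 in the DTG libraries, against 7296, 7292, 7562 and 7495 in the MckrtTA libraries (log2 fold change -1.36 ± 0.15, limma adjusted p = 4.82e-05). Ndufb9, a member of the LYR protein family that binds the acyl carrier protein Ndufab1, had 17968, 11847, 10285 and 12877 in the DTG libraries, against 34882, 32759.5, 34141 and 31723 in the MckrtTA libraries (log2 fold change -1.36 ± 0.16, limma adjusted p = 6.65e-05). In each of these 3 genes all DTG libraries were far below all MckrtTA libraries, and mouse 253 was the highest DTG mouse in all 3. Ndufa12, an accessory subunit of the N module that is related in sequence to the assembly factor Ndufaf2, had 9538, 6621, 5163 and 5979.9 in the DTG libraries, against 16812, 17579, 19180.5 and 15942 in the MckrtTA libraries (log2 fold change -1.38 ± 0.17, limma adjusted p = 0.0001). Ndufa6, another LYR protein that holds the acyl carrier protein on the Q module, had 8409, 5785, 5314 and 6579 in the DTG libraries, against 17386, 13887, 17001 and 16418 in the MckrtTA libraries (log2 fold change -1.33 ± 0.15, limma adjusted p = 5.07e-05). The DTG libraries of both genes stayed below the MckrtTA libraries, and for Ndufa6 the MckrtTA library of mouse 280 was lower than the other MckrtTA libraries.

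The 5 accessory subunits with the smallest falls had DTG means between 52.5% and 60.9% of their MckrtTA means. Ndufb7 (chr8:83566758-83571623 in mm10), which lies on the intermembrane space side of the distal arm, had 5763, 5432, 4559 and 5272 in the DTG libraries, against 8034, 8288, 9456 and 8726 in the MckrtTA libraries (log2 fold change -0.72 ± 0.10, limma adjusted p = 0.00017). Ndufab1, the mitochondrial acyl carrier protein that also serves fatty acid synthesis, had 8071, 6305, 5298 and 6618 in the DTG libraries, against 11994, 11488, 12066 and 11689.8 in the MckrtTA libraries (log2 fold change -0.86 ± 0.12, limma adjusted p = 0.000211). Both genes were lower in each DTG library than in any MckrtTA library. Ndufb3 of the distal arm had 5086, 3899, 3351 and 4189 in the DTG libraries, against 7955, 7132, 7499 and 7563 in the MckrtTA libraries (log2 fold change -0.88 ± 0.12, limma adjusted p = 0.000196). Ndufb5 of the distal arm had 17749, 13263, 9892 and 12957 in the DTG libraries, against 25135, 26986, 24327 and 22294 in the MckrtTA libraries (log2 fold change -0.90 ± 0.16, limma adjusted p = 0.000928). Ndufc2 of the proximal arm had 5348, 4629, 3986 and 5082 in the DTG libraries, against 8684, 8326, 9619 and 9678 in the MckrtTA libraries (log2 fold change -0.94 ± 0.11, limma adjusted p = 6.94e-05). For these 3 the groups were separate too, and for Ndufb5 mouse 253 stood well above the other DTG mice.

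The smallest adjusted p among accessory subunits belonged to Ndufa7, Ndufb4 and Ndufv3. Ndufa7, an accessory subunit of the peripheral arm, had 4011, 3729.8, 3353 and 3919 in the DTG libraries, against 7500.2, 7829, 8066 and 8762 in the MckrtTA libraries (log2 fold change -1.10 ± 0.09, limma adjusted p = 1.02e-05). Ndufv3 of the N module had 4875, 3895, 3537 and 4193 in the DTG libraries, against 8964, 8728, 9759 and 9017 in the MckrtTA libraries (log2 fold change -1.15 ± 0.11, limma adjusted p = 1.95e-05). Their changes were near the middle of the accessory range, but their DTG libraries lay closer together than those of most members. The other 17 accessory subunits had log2 fold changes from -1.31 in Ndufc1 to -0.9997 in Ndufa10, and 16 of them were called lower. Ndufs4, whose loss causes Leigh syndrome in human and a like disease in mice, averaged 7841 ± 2000.0 in DTG and 15787 ± 334 in MckrtTA libraries (SD, n = 4 each; log2 fold change -1.04 ± 0.16, limma adjusted p = 0.000298).

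Calls near the minimum of 2 fold moved with single libraries, while each adjusted p in limma stayed under 0.005. Without DTG mouse 283, 27 members were called, and Ndufs4 had a log2 fold change of -0.93 and was not among them. Ndufa3, Ndufa8, Ndufa11, Ndufb6 and Ndufb10 also lost their calls, with values from -0.98 in Ndufa8 to -0.92 in Ndufb6. Without DTG mouse 282, Ndufs4 had -0.99, and Ndufb6 and Ndufb10 were not called either. Ndufb6 and Ndufb10 lost their calls without MckrtTA mouse 281, and Ndufb6 without MckrtTA mouse 307. Without DTG mouse 253, Ndufa10 (-1.11) and Ndufb5 (-1.04) were called, and Ndufa10 was also called without DTG mouse 306 or MckrtTA mice 255, 280 or 281.

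The assembly factors did not move as a block. Ndufaf6 (chr4:11051046-11076204 in mm10), needed early in assembly, had 721, 449, 478 and 487 in the DTG libraries, against 1809.6, 2067, 1837 and 1741 in the MckrtTA libraries (log2 fold change -1.81 ± 0.15, limma adjusted p = 1.21e-05). This was the lowest fold change of all 44 members, with DTG at 28.6% of the MckrtTA mean and mouse 253 again above the other DTG mice. Ndufaf5, which hydroxylates an arginine of Ndufs7, had 1627, 1315, 1023 and 1202 in the DTG libraries, against 3037, 2964, 3235 and 3145 in the MckrtTA libraries (log2 fold change -1.27 ± 0.13, limma adjusted p = 3.79e-05). Ndufaf4, which acts on the Q module together with Ndufaf3, had 2886, 2003, 1751 and 2187 in the DTG libraries, against 4385, 4135, 4734 and 4626 in the MckrtTA libraries (log2 fold change -1.04 ± 0.14, limma adjusted p = 0.000187). These 3 were called, and their groups were far apart. The call of Ndufaf4 was lost without DTG mouse 283 (-0.94) and without DTG mouse 282 (-0.9995).

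The other 3 assembly factors were not called at the thresholds of the study. Ndufaf1, a factor for the membrane arm, had 1717, 1783, 1259.9 and 2325 in the DTG libraries, against 2529.6, 3238, 3163 and 4216 in the MckrtTA libraries (log2 fold change -0.90 ± 0.20, limma adjusted p = 0.00317). Ndufaf3 (chr9:108565865-108567342 in mm10), the partner of Ndufaf4, had 534, 614, 521 and 570.2 in the DTG libraries, against 863, 681, 785 and 807 in the MckrtTA libraries (log2 fold change -0.48 ± 0.11, limma adjusted p = 0.00451). Ndufaf2 (chr13:108052589-108158625 in mm10), a chaperone of late assembly related to Ndufa12, had 562, 553, 433 and 399 in the DTG libraries, against 631, 622, 757 and 543 in the MckrtTA libraries (log2 fold change -0.39 ± 0.16, limma adjusted p = 0.0486). Ndufaf1 varied widely in both groups and was called without DTG mouse 306 (-1.04, adjusted p = 0.00167) or MckrtTA mouse 255 (-1.02, adjusted p = 0.00295), while for Ndufaf2 the groups overlapped, since DTG mice 253 and 282 lay above MckrtTA mouse 307. Their DTG means were 53.9%, 71.4% and 76.2% of the MckrtTA means of Ndufaf1, Ndufaf3 and Ndufaf2 in that order.

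**Figure D2:**
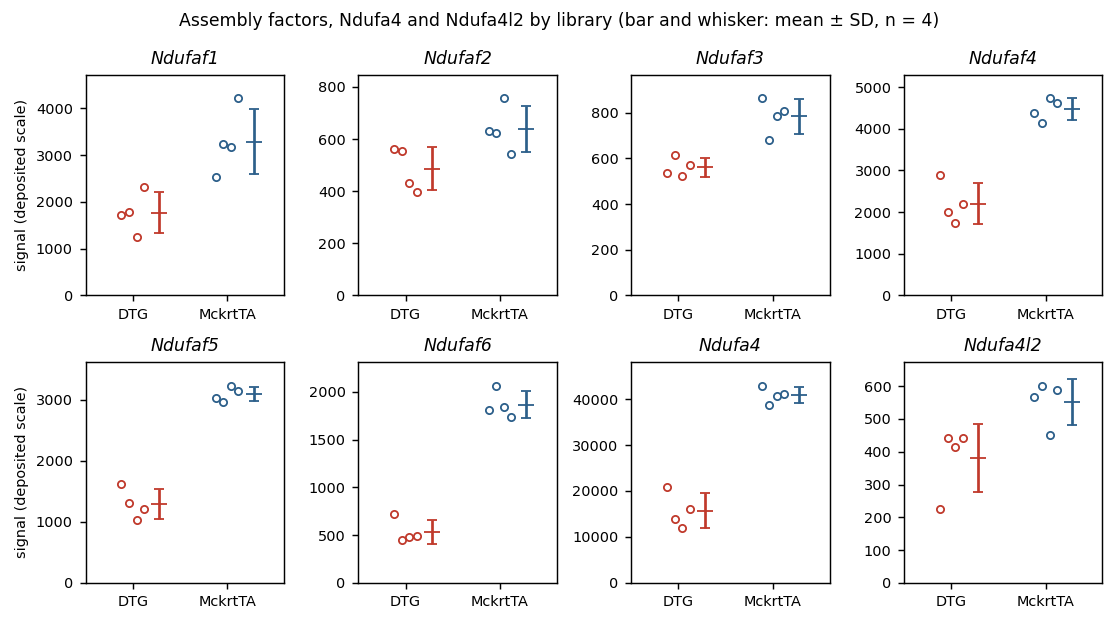
Signal on the deposited scale (y axis, from 0) of Ndufaf1 to Ndufaf6, Ndufa4 and Ndufa4l2 in each DTG (left) and MckrtTA library (right), with circles in mouse order and the mean ± SD (n = 4) beside them. The 2 groups are far apart for Ndufaf6, Ndufaf5 and Ndufa4 and overlap for Ndufaf2, and DTG mouse 253 (first circle) is the lowest library of Ndufa4l2 at 226.

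Ndufa4, an abundant protein of complex IV that was long counted as a complex I subunit, had 20756, 13786, 12022 and 16074 in the DTG libraries, against 42959, 38679, 40618 and 41080.5 in the MckrtTA libraries (log2 fold change -1.41 ± 0.16, limma adjusted p = 5.39e-05). Ndufa4l2, its relative whose gene is induced by hypoxia, had 226, 442, 414 and 441 in the DTG libraries, against 566, 602, 449.9 and 587 in the MckrtTA libraries (log2 fold change -0.56 ± 0.22, limma adjusted p = 0.0457). The order of the DTG mice was opposite in the 2 genes at one end: mouse 253 was the highest DTG mouse for Ndufa4 and the lowest for Ndufa4l2. Ndufa4l2 amounted to 2.62 ± 1.06% of the signal of Ndufa4 in DTG and 1.35 ± 0.19% in MckrtTA libraries (SD, n = 4 each). The group means of that ratio gave p = 0.143 (two-sided exact permutation test, where 4 against 4 cannot go below 0.0286), which does not show that the ratio was unchanged. In DTG mouse 253 the ratio was 1.09%, below each MckrtTA library (1.11 to 1.56%). In DTG mice 282, 283 and 306 it was 2.74 to 3.45%, above each MckrtTA library.

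Other assembly factors of complex I lie outside the naming rule. Ndufaf7, a methyltransferase, and Ndufaf8, a partner of Ndufaf5, stand in the table under the older symbols 2410091C18Rik and 1810043H04Rik, with log2 fold changes of -0.49 (limma adjusted p = 0.0082) and -0.89 (limma adjusted p = 0.000159). Of 12 further assembly factors 3 were called lower and none higher, against 16.0% of all genes tested lower and 14.6% higher. At an adjusted p under 0.05, 11 of 12 were lower, against 44.1% of all genes, and none was higher at an unadjusted p under 0.05. The 3 were Ecsit, a member of the assembly complex of the membrane arm (-1.61), Tmem186 of the same complex (-1.18) and Atp5sl, now named Dmac2 (-1.44). Lyrm2 had a log2 fold change of -0.03 (limma adjusted p = 0.836). Ndufb1 and Coa1 were not analysed here.

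Levels of different genes were compared per kilobase of transcript, since longer transcripts give more reads. By signal per kilobase, core subunits had medians of 9025 in DTG and 22094 in MckrtTA muscle. Accessory subunits had medians of 8189 per kilobase in DTG and 17604 in MckrtTA muscle, and assembly factors had 663 in DTG and 1477 in MckrtTA muscle. All 6 assembly factors stood below every subunit in both groups, where the lowest subunit was Ndufab1 with 1889 per kilobase in DTG and 3395 in MckrtTA muscle. Its rank rests on a matched transcript of 3479 bases, the longest among the subunits. Before division by length its mean signal was 6573 in DTG and 11809 in MckrtTA muscle. Ndufa4 was the highest of all 44, with 25672 per kilobase in DTG and 66941 in MckrtTA muscle.

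On the deposited scale individual DTG mice kept nearly the same order through the members. Mouse 253 had the highest DTG signal in 41 of 44 members and mouse 283 the lowest in 41 of 44. Mouse 282 was highest for Ndufaf3 and Ndufa4l2, and mouse 306 for Ndufaf1. Of the 41 nuclear genes of complexes II to V, 37 were likewise highest in mouse 253 among DTG mice and 38 were lowest in mouse 283. How many of all genes tested kept this order was not counted. Total signal was 90.9 M in mouse 253 and 60.6 to 66.4 M in the other DTG mice. By share of total signal mouse 253 was not highest, since the members took 0.456% in mouse 253, 0.462% in 282, 0.418% in 283 and 0.492% in 306. Mouse 253 also stood apart in cell type markers, whose part in the order on the deposited scale was not tested. In units of 1000, its summed signal of muscle fibre markers was 10490, against 4790 to 5904 in the other DTG mice. In the same units it had 52.8 for macrophage markers against 132.3 to 189, 13.5 for markers of regenerating fibres against 50.5 to 90.4, and 149.9 for fibroblast markers against 513 to 759 in the other DTG mice. In each of these 4 sums mouse 253 was the DTG mouse nearest to the MckrtTA mice, but not in every single marker. It was the DTG mouse furthest from them in Myod1 (signal 5699, against 3273 to 4340 in the other DTG mice) and Itgam (10023, against 5175 to 7102). The same held for Myh1 (151352, against 165538 to 174662) and Dcn (33284, against 33592 to 36425). Mouse 253 also had the highest Akt1 signal of the DTG mice (69301, against 37986 to 63102). Without mouse 253, 36 members were called, with a median log2 fold change of -1.27. Mice 253 and 283 were the DTG mice of lane 1, 1 of 2 sequencing lanes that the labels name, each with 2 DTG and 2 MckrtTA libraries. Another code in the column headers splits the libraries in the same way, so lane cannot be told apart from what that code marks. Within lane 1 (2 against 2) the median log2 fold change of the members was -1.14 and none was called at the thresholds of the study, although 29 had an adjusted p under 0.05 and 42 an unadjusted p under 0.05 in limma, all lower. Within lane 8 the median was -1.17 and 34 were called. With lane as a covariate 34 were called. The shares of all genes called in these lane fits were not counted, so the counts of members cannot be set against them.

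Complex I was compared next with the mean of the other nuclear genes of the respiratory chain. Each library was centred on the mean log2 signal of 41 nuclear genes of complexes II to V, which takes out any change that these genes share. Those 41 genes had a median log2 fold change of -1.06 on the deposited scale, and 26 of them were called lower. Their mean was -1.01. At an adjusted p under 0.05 with no minimum fold, 39 were lower and 2 were higher: Cox6a1 (0.90, adjusted p = 0.00182) and Cox8a (0.72, adjusted p = 0.00504), subunits of complex IV whose relatives Cox6a2 and Cox8b are the muscle forms. A centred value says how a gene moved against that mean and not against each of the 41, of which 9 were themselves lower and 3 higher on the centred scale. After centring, 18 of 44 members were lower and 3 higher at an adjusted p under 0.05, with no minimum fold, against 7.84% of all genes lower and 65.4% higher. The median centred log2 fold change of the members was -0.15. By class, 5 of 7 core subunits were lower, 10 of 29 accessory subunits lower and 1 higher, and 2 of 6 assembly factors lower and 2 higher. No member of the 44 was called at an adjusted p under 0.005 with 2 fold, where 19 were lower and 3 higher at an unadjusted p under 0.05 in limma.

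The centred counts moved with Cox6a1 and Cox8a. With these 2 genes left out of the centring, a choice made after their values were seen, the mean of the remaining 39 was -1.10 and the median centred value of the members -0.052. In that fit 13 members were lower and 5 higher, against 6.19% of all genes lower and 69.4% higher. The calls of Ndufs3, Ndufv2, Ndufa13, Ndufb8 and Ndufaf5 were lost, with adjusted p from 0.0711 in Ndufa13 to 0.14 in Ndufaf5 in limma, and Ndufab1 (0.24, adjusted p = 0.0113) and Ndufb3 (0.22, adjusted p = 0.021) were called higher. Ndufs7 (-0.35, adjusted p = 0.00867), Ndufb4 (-0.34, adjusted p = 0.00267) and Ndufaf6 (-0.71, adjusted p = 0.00109) were lower in that fit too.

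The core subunits ranged from -0.45 ± 0.10 (limma adjusted p = 0.00206) in Ndufs7 to -0.11 ± 0.08 (limma adjusted p = 0.24) in Ndufs8 on this centred scale. Ndufv1 had -0.31 ± 0.08 (limma adjusted p = 0.00481), Ndufs1 -0.28 ± 0.08 (limma adjusted p = 0.00863), Ndufs3 -0.22 ± 0.08 (limma adjusted p = 0.0242) and Ndufv2 -0.22 ± 0.07 (limma adjusted p = 0.021). Ndufs8 was not called. All 3 core genes of the N module were thus lower relative to the mean of the 41 genes, as were Ndufs7 and Ndufs3 of the Q module. Single genes among the 41 had values as low: Sdha of complex II had a centred value of -0.40 and Cox7a1 of complex IV one of -0.64. The calls of Ndufs3 and Ndufv2 were lost when single libraries were left out: adjusted p was 0.0763 for Ndufs3 and 0.069 for Ndufv2 without DTG mouse 282, 0.0709 and 0.0621 without MckrtTA mouse 280, and 0.0523 and 0.0619 without MckrtTA mouse 281, and for Ndufs3 it was 0.0648 without MckrtTA mouse 307.

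Of the 10 accessory subunits lower on the centred scale 5 belonged to the distal membrane arm, 2 each to the N module and the proximal arm, and 1 to the Q module junction. Ndufb4 had -0.43 ± 0.08 (limma adjusted p = 0.00065), Ndufa12 -0.37 ± 0.11 (limma adjusted p = 0.012), Ndufb2 -0.36 ± 0.08 (limma adjusted p = 0.00335) and Ndufb9 -0.36 ± 0.08 (limma adjusted p = 0.0031). The others were Ndufa6, Ndufc1, Ndufb11, Ndufs6, Ndufa13 and Ndufb8, from -0.32 in Ndufa6 to -0.22 in Ndufb8. Ndufb7 was the only subunit higher with all 41 genes in the centring, at 0.29 ± 0.10 (limma adjusted p = 0.0208). Its call was lost without DTG mouse 282 (adjusted p = 0.0691) and without MckrtTA mouse 255 (adjusted p = 0.066), and that of Ndufb8 without MckrtTA mouse 281 (adjusted p = 0.0514). The distal arm thus held 5 accessory subunits below and 1 above the mean of the 41 genes, while Atp5g3 of complex V had a centred value of 0.36, above that of Ndufb7.

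The assembly factors spread furthest on the centred scale. Ndufaf6 had -0.80 ± 0.13 (limma adjusted p = 0.000519) and Ndufaf5 -0.27 ± 0.10 (limma adjusted p = 0.0304), both lower. Ndufaf3 had 0.53 ± 0.16 (limma adjusted p = 0.0137) and Ndufaf2 0.62 ± 0.18 (limma adjusted p = 0.0103), both higher. Ndufaf4 had -0.03 ± 0.08 (limma adjusted p = 0.763) and Ndufaf1 0.11 ± 0.19 (limma adjusted p = 0.62), and neither was called. In pairs linked by function or by sequence, the partners Ndufaf3 and Ndufaf4 had centred values of 0.53 and -0.03, and the relatives Ndufaf2 and Ndufa12 had 0.62 and -0.37, while the enzyme Ndufaf5 and its substrate Ndufs7 had -0.27 and -0.45. The differences within these pairs were not tested. The call of Ndufaf5 was lost without DTG mouse 306 (adjusted p = 0.0558) and without MckrtTA mice 280, 281 or 307 (0.0716, 0.083 and 0.0736).

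Ndufa4 was lower on the centred scale, at -0.40 ± 0.08 (limma adjusted p = 0.00097), and Ndufa4l2 had 0.45 ± 0.31 (limma adjusted p = 0.212). Without DTG mouse 253, the low library of Ndufa4l2, that gene was called higher (0.78, adjusted p = 0.000726). Within lane 1 no member was called on this scale and 1 was lower at an unadjusted p under 0.05 in limma, while 17 were lower and 4 higher within lane 8. For these lane fits too the shares of all genes called were not counted.

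**Figure D3:**
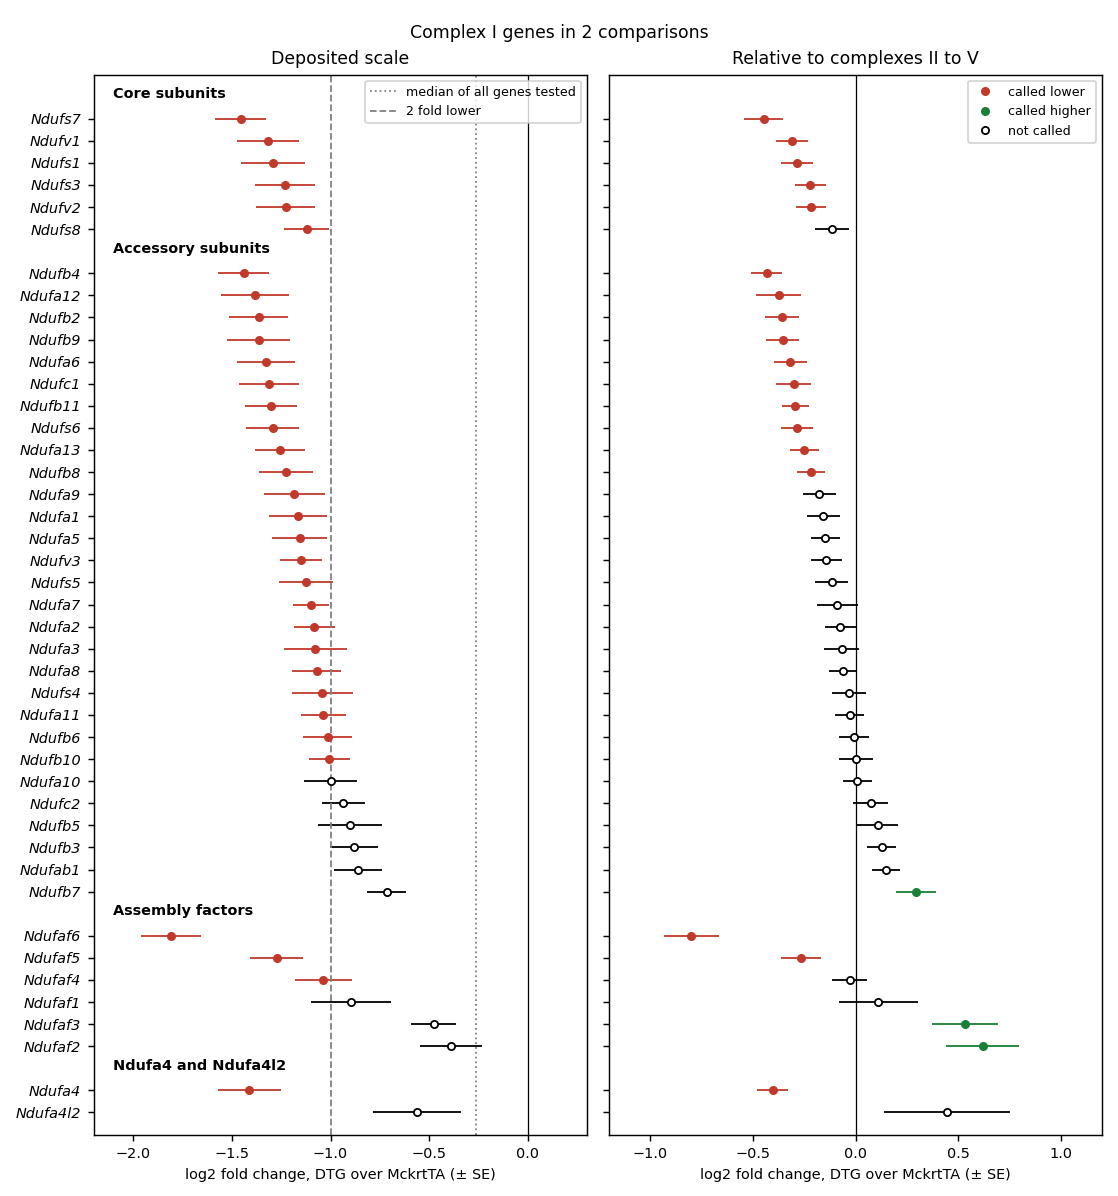
Log2 fold change of DTG over MckrtTA (x axis, ± SE) of 43 of the 44 genes, on the deposited scale (left panel) and after centring each library on 41 nuclear genes of complexes II to V (right panel), with filled symbols for called genes. On the left all points lie below 0 and 33 are called lower, and on the right 18 are lower, 3 (Ndufb7, Ndufaf3 and Ndufaf2) are higher and 22 are not called.

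Summed over each library, the 44 members took 0.457 ± 0.0304% of all signal in DTG and 0.542 ± 0.0032% in MckrtTA libraries (SD, n = 4 each), from 0.418 to 0.492% in DTG and from 0.538 to 0.545% in MckrtTA libraries. Core subunits took 0.147 ± 0.0134% in DTG and 0.183 ± 0.00331% in MckrtTA libraries, and accessory subunits 0.278 ± 0.0161% in DTG and 0.318 ± 0.00319% in MckrtTA libraries. For assembly factors the shares were 0.0098 ± 0.00101% in DTG and 0.0105 ± 0.000518% in MckrtTA libraries. The summed signal of the members was 0.380 ± 0.00301 times that of complexes II to V in DTG and 0.402 ± 0.00928 times in MckrtTA libraries. The shares of core and accessory subunits did not overlap between the groups, while those of the assembly factors did.

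The size of the fall rests on how libraries are scaled, and total signal differed between the groups (60.6 to 90.9 M in DTG and 131.7 to 136.3 M in MckrtTA libraries). Scaling by the trimmed mean of log ratios moved the median of all genes by 0.24 and left 15 members lower, against 9.31% of all genes, and the median of ratios moved it by 0.28 and left 11 lower, against 8.50%. Under equal totals, a shift of 0.92, none was called, against 2.00% of all genes, with 24 lower and 3 higher at an unadjusted p under 0.05 in limma. In that scaling the median of the members was -0.21, and 9 members had a log2 fold change above 0, from 0.013 in Ndufc2 to 0.54 in Ndufaf2. The median of all genes tested was 0.65 under equal totals, and every member lay below it, as on the deposited scale. Each scaling divides a library by a single factor, which moves all genes by nearly the same amount. The order of the members was therefore nearly fixed in advance, with Ndufaf6 lowest and Ndufaf2 highest under all 4 scalings.

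**Figure D4:**
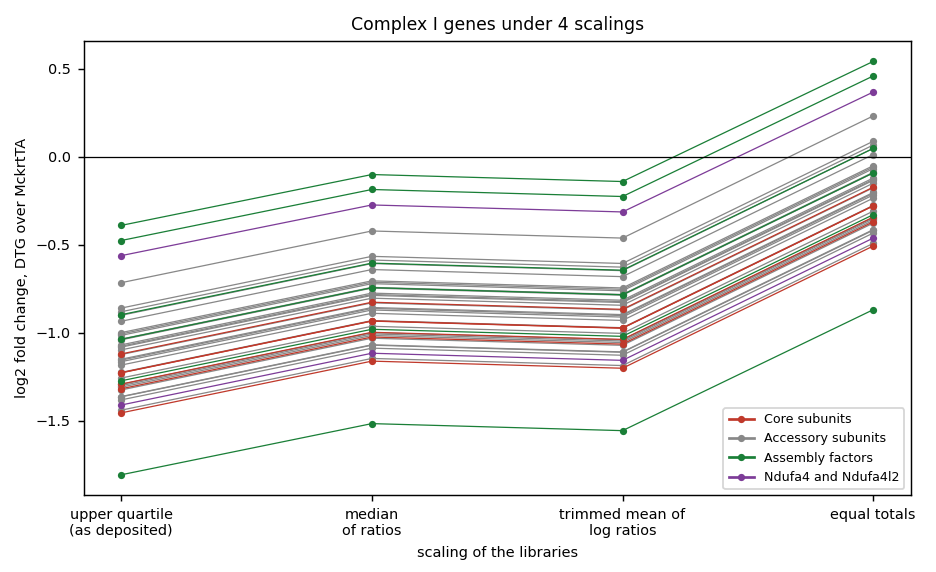
Log2 fold change of DTG over MckrtTA (y axis) of 43 of the 44 genes, 1 line per gene coloured by class, under 4 scalings of the libraries (x axis). All genes lie below 0 under the first 3 scalings, and under equal totals 9 lie above 0, among them Ndufaf1, Ndufaf2 and Ndufaf3.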

How the data were processed

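Polyadenylated RNA was sequenced from the gastrocnemius of 4 DTG and 4 MckrtTA mice, with 4 libraries on each of 2 lanes, which the sample labels name. Libraries of the 2 lanes also carry different codes in the column headers. The authors estimated reads per gene with RSEM on mm10 transcripts (BWA is also named in the submitters' processing notes) and scaled them by the upper quartile of each library, and the deposited values are therefore signal and not counts. To estimate depth, the commonest non-zero value of a library was taken as 1 read. Whole reads were not recovered, so no count test was run. Groups were taken from the genotype labels, and mice are the replicates.

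Signals were log2-transformed after 10 was added, and 15073 of 30743 genes (those reaching 25 in at least 3 libraries) entered a limma model (limma 3.58.1, R 4.3.3) with a mean-variance trend. P-values were adjusted over all of these by the Benjamini-Hochberg method. Calls on the deposited scale needed an adjusted p under 0.005 and 2 fold, as in the study's methods. In the second comparison each library was centred on 41 nuclear genes of complexes II to V and calls needed an adjusted p under 0.05. Transcript lengths were those of the GENCODE transcripts that RefSeq accessions matched, and promoters came from RefSeq on GRCm38.p6. The NRF1 motif was shortened after a longer, degenerate form had been searched, which had matched more of the members.

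The members and lists were chosen with earlier results of these data known. Values per library were given for core subunits (1 member, though counted, is not reported here), Ndufaf genes, Ndufa4, Ndufa4l2, and the accessory subunits with the 5 lowest and 5 highest fold changes and the 3 smallest adjusted p. Ndufs4 was added after its values were seen, and the other accessory subunits were given by range or for a changed call. Alternatives covered the added constant, the filter, the lanes, the trend, the scaling, the centring genes, the thresholds and each library left out. Centring without Cox6a1 and Cox8a was added after the data were seen.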

Additional observations from a re-analysis of the deposited data

Results flagged for a closer look

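In each group the 4 libraries of every member were examined for 1 library standing apart, by the gap to its nearest neighbour as a share of the group's range. Of 88 groups looked at, 3 held such a library, and chance alone gives about 1 in 20. Ndufaf6 had 720.6 in DTG mouse 253, against 449 to 487 in the other DTG mice. Without that mouse its log2 fold change was -1.96 (limma adjusted p = 1.25e-07) on the deposited scale and -0.85 (limma adjusted p = 0.000102) against complexes II to V. Ndufa4l2 had 226 in the same mouse, against 414 to 442 in the other DTG mice, and without it the log2 fold change was -0.34 (limma adjusted p = 0.0317) on the deposited scale. Ndufa1, a membrane arm subunit, had 7479 in MckrtTA mouse 280, against 8352 to 8420.4 in the other MckrtTA mice, all above the DTG mice, whose highest value was 4917.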

How the results depend on the processing

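On the deposited scale all 44 members kept a log2 fold change below 0 under each alternative but equal totals. The count of members lower, 34 as reported, was 0 within lane 1 (core 0, accessory 0, assembly 0) and 0 under equal totals (core 0, accessory 0, assembly 0, median log2 fold change -0.21). It was 15 with the trimmed mean of log ratios (core 3, accessory 9) and 11 with the median of ratios (core 2, accessory 7, assembly 1, median -0.86). All 6 assembly factors were lower at an adjusted p under 0.05 with no minimum fold. Under equal totals 9 members turned above 0: Ndufa4l2 0.37, Ndufab1 0.088, Ndufaf1 0.048, Ndufaf2 0.54, Ndufaf3 0.46, Ndufb3 0.067, Ndufb5 0.048, Ndufb7 0.23 and Ndufc2 0.013. Leaving out single libraries gave 27 (without DTG mouse 283) to 36 members lower.

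Against complexes II to V, where 18 members were lower and 3 higher, the counts within lane 1 were 0 and 0 (core 0, accessory 0, assembly 0), as they were at an adjusted p under 0.005 with 2 fold. Within lane 8 1 assembly factor was lower. Without the mean-variance trend 3 core subunits were lower. Centred on complex IV alone, 17 accessory subunits were lower and the median of the members was -0.26. The 13 genes of that centring include Cox6a1 and Cox8a, which were higher in DTG on the deposited scale. The share of all genes called in that fit was not counted, so its count cannot be set against them. Centred without Cox6a1 and Cox8a, an alternative chosen after seeing the data, 13 members were lower (core 3, assembly 1) and 5 higher, and the median was -0.052. Leaving out single libraries gave 14 (without MckrtTA mouse 281) to 21 members lower, 3 to 6 core subunits (3 without DTG mouse 282 or MckrtTA mice 280 or 281, against 5) and 1 to 2 assembly factors (1 without DTG mouse 306 or MckrtTA mice 280, 281 or 307, against 2). Fits within a lane or with a library left out rest on fewer libraries. The shares of all genes called in them were not counted, and why the calls changed was not tested. No paired analysis was possible because neither the labels nor the methods say which of the littermates shared a litter. With 4 mice a group and no counts, small differences among the members could not be resolved, and the scaling sets the size of every fall on the deposited scale.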
